A study of Homo sapiens with 24 samples.

Results

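The comparison described here is the knockdown of PURPL, a long noncoding RNA, against non-targeting controls in cells given only the vehicle DMSO. It uses 12 of the 24 RNA-seq libraries of the series, namely all 8 DMSO libraries of the lines PURPL_sgRNA_2, _4, _5 and _6 (called sg2, sg4, sg5 and sg6) and the 4 DMSO libraries of the lines NTC1 and NTC2. All groups are CRISPR interference (CRISPRi) lines of SKHEP1, an established human cell line from a liver tumour, and all were exposed to DMSO for 6 h. In CRISPRi a catalytically dead Cas9 joined to a repressor is brought to a promoter by a guide RNA and lowers transcription there without cutting the DNA. Each line carried 1 guide, so an effect of the guide cannot be told apart from an effect of the line, and each line was harvested 2 times, under the numbers 1 and 3. The line is therefore the replicate, and the 2 harvests of a line were summed, which gives 4 PURPL guide lines against 2 NTC lines. Libraries with Nutlin-3a were not used.

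PURPL is known as a transcript that p53 induces. It has been described as restraining basal p53 levels and as a partner of MYBBP1A and of the RNA-binding protein HuR, the product of ELAVL1. The tumour suppressor p53 is kept low in unstressed cells by the ubiquitin ligase MDM2, and when it accumulates it activates genes of cell cycle arrest, apoptosis and DNA repair. The DMSO libraries show what loss of PURPL goes with when p53 has not been activated by a drug.

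PURPL (ENSG00000250337.6, lincRNA, 6 annotated transcripts) lies on the plus strand of chromosome 5 from 27472292 to 27496401 in hg38. The window from 250 bases before its start to 50 bases after it is chr5:27472042-27472341 on the plus strand of GRCh38.p14 from RefSeq. It is shown because CRISPRi lowers transcription at promoters. The guide sequences were not in the sources used here, so whether the guides lie in this window is unknown. The capitals mark 2 adjacent 10-base half-sites of the palindromic p53 binding motif.
PURPL promoter: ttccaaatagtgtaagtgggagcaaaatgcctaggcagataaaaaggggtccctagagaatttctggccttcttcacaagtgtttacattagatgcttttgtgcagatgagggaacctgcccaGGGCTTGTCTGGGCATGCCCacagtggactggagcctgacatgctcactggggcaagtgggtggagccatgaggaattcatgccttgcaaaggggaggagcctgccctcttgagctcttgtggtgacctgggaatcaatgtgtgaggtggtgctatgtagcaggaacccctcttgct
The pair of half-sites spans 127 to 108 bases before the start, from 27472165 to 27472184. The motif reads the same on both strands. Of 34943 promoter windows of this length, 2321 (6.64%) hold at least 1 half-site and 6 (0.0172%) hold 2 adjacent ones. Among the other genes with such a pair, PTCHD4 had 13.7 ± 0.232 CPM (SD, n = 2) in the NTC lines and 15.3 ± 0.896 CPM (n = 4) in the PURPL guide lines, and LNCTAM34A had 0.156 ± 0.0219 and 0.103 ± 0.0352 CPM. CPM is the count of a gene per 1 M counts of the library after TMM scaling. Neither gene passed the test used below (edgeR adjusted p = 0.8251 for both). A match of letters is a description and not evidence of binding.

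Estimated counts summed to 68.25 M to 92.12 M per library (median 77.69 M). The NTC1 library of harvest 3 stood apart: its median Pearson r with the other 11 libraries, across genes, was 0.9869, against 0.993 to 0.9946 for the others. Its log2 levels were taken relative to each gene's median over the libraries and fitted on transcript GC content. The slope was 0.359 per 10 percentage points, against 0.158 in the other NTC1 library. It was -0.0525 and -0.151 in the NTC2 libraries and -0.171 to 0.0544 in the guide libraries. The log2 differences between guide and NTC lines had a GC slope of -0.108, and of -0.0325 without harvest 3 of NTC1. AC087190.3 had 525 counts in harvest 3 of NTC1 and 0 in all others. The share of counts from the mitochondrial genome was 0.81% to 0.927% in NTC libraries and 0.855% to 1.08% in guide libraries. The labels class SKHEP1 as endothelial, yet 10 of 18 endothelial markers stayed below 0.1 CPM in every library and ERG was at 0. The summed level of the endothelial markers was 50.3 to 66.8 CPM in the NTC libraries and 52.3 to 60.2 CPM in the guide libraries. Most of it came from ENG (20.7 to 38.9 CPM over all libraries) and FLI1 (23.0 to 29.5 CPM). Hepatocyte markers summed to 2.96 to 5.17 and 2.52 to 4.29 CPM, with 7 of 20 at 0. Leukocyte markers summed to 34.7 to 56.8 and 27.9 to 48.3 CPM, mainly from CD74 (11.9 to 29.8 CPM over all libraries) and CD68 (15.8 to 26.7 CPM). Fibroblast and mural markers summed to 182.7 to 201.9 and 154.0 to 246.6 CPM, and epithelial markers, mainly KRT18, to 1595 to 2523 and 1346 to 2411 CPM. In bulk samples fewer cells of a type and less RNA per cell cannot be told apart.

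All 4 guides lowered PURPL in both harvests. In the NTC lines it had 7.49 and 7.33 CPM (NTC1) and 8.31 and 10.04 CPM (NTC2), from 565 to 875 counts. It had 0.273 and 0.321 CPM in sg2, 0.518 and 0.509 CPM in sg4, 0.784 and 0.846 CPM in sg5, and 0.530 and 0.613 CPM in sg6, from 22 to 61 counts. The lowest NTC library was thus far above the highest guide library, and the groups did not overlap. The guides themselves were ordered, with sg2 lowest at 3.58% of the NTC mean, sg4 at 6.24%, sg6 at 6.92% and sg5 highest at 9.87%. The harvests of a line lay closer together than these lines did, except for sg4 and sg6.

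**Figure D1:**
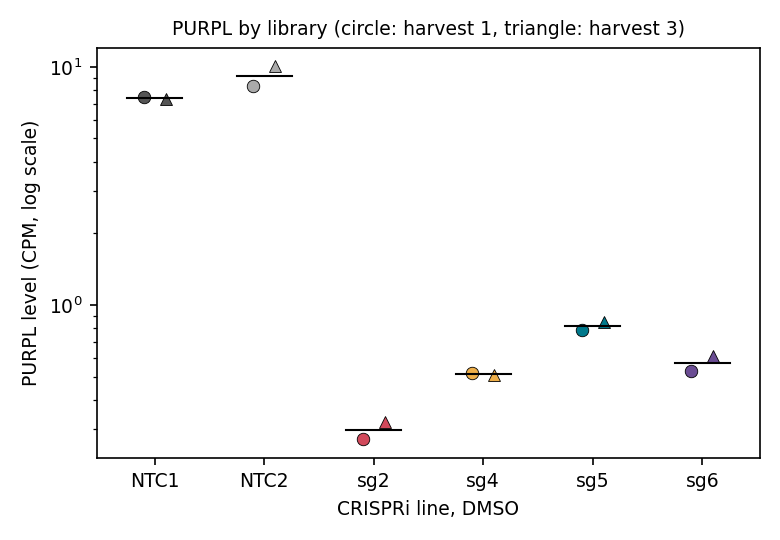
PURPL level in CPM on a log axis for each of the 12 DMSO libraries, by line, with the bar at the mean of the 2 harvests. The 4 NTC libraries sit between 7.33 and 10.04 CPM and the 8 guide libraries between 0.273 and 0.846 CPM.

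Over lines, PURPL went from 8.27 ± 1.26 CPM (SD, n = 2 lines) to 0.55 ± 0.214 CPM (n = 4 lines). The log2 difference was -3.92 (SE 0.29, 95% interval -4.58 to -3.25, edgeR adjusted p = 0.01265, lower in 4 of 4 guide lines). Adjusted p is the Benjamini-Hochberg value over all genes tested and a gene is called when it is under 0.05. An exact two-sided permutation test of the difference in mean log2 CPM gave p = 0.06667, and with 15 ways to split 6 lines no smaller value is possible. The call, though not the size of the difference, was lost without NTC1 (edgeR adjusted p = 0.167), sg4 (0.1191), sg6 (0.163) or harvest 1 of every line (0.0557).

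The main question was which other genes differed with PURPL lowered. Among the 16648 genes tested, edgeR called 0 as higher and 1 as lower. The 1 gene was PURPL itself, which is 0.00601% of the genes. At an unadjusted edgeR p under 0.05 there were 528 genes (3.17%), and DESeq2 called 12 of 27057 genes (0.0444%), 8 higher and 4 lower. Without regard to a test, 865 genes (5.2%) were higher in all 4 guide lines than in both NTC lines, and 818 (4.91%) were lower in all 4. The median log2 difference over all genes was -0.01.

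The intervals behind this count were narrow for most well expressed genes. They rest on 2 NTC lines and 4 residual degrees of freedom, and the differences of some genes changed sign without NTC1. For 11826 of the 12017 genes with at least 1 CPM (98.4%) the 95% interval of the difference lay within 2-fold in either direction, and for 10502 (87.4%) within 1.5-fold. The median SE was 0.08 on the log2 scale for genes of 100 CPM or more, 0.0867 for 10 to 100 CPM, 0.146 for 1 to 10 CPM and 0.296 below that. Of the 2435 genes of 100 CPM or more, 1 had an absolute log2 difference over 1. It is POSTN.

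**Figure D2:**
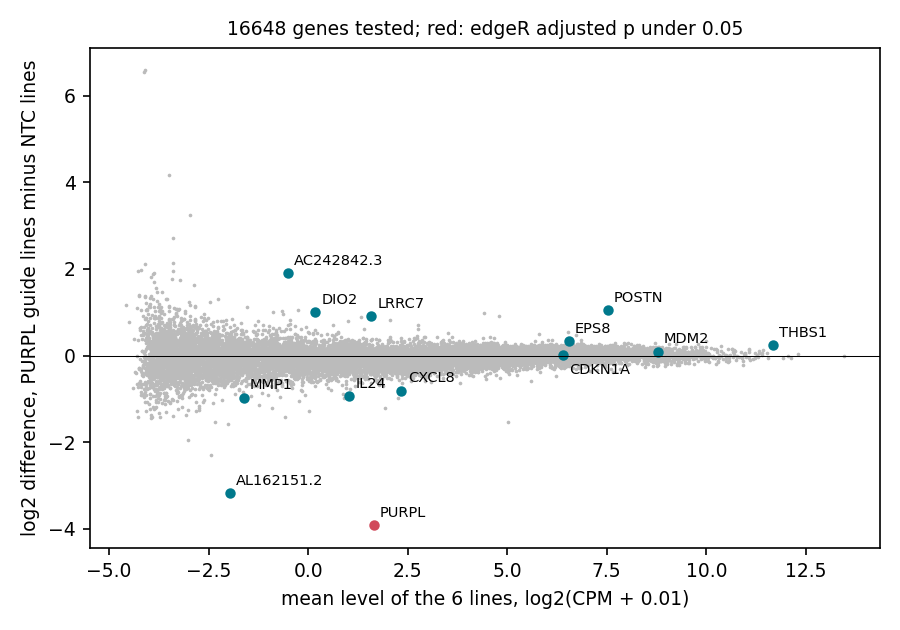
Log2 difference between PURPL guide lines and NTC lines (y axis) against the mean level of the 6 lines on the scale log2(CPM + 0.01) (x axis), 1 point per gene for 16648 genes. PURPL, the red point, stands at -3.92; the labelled genes in blue did not pass the threshold.

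The 2 control lines also differed from each other. NTC2 against NTC1, a comparison with no PURPL guide in it, gave 3217 calls of 15780 genes (20.4%), 1227 higher in NTC2 and 1990 lower. That test uses the spread between harvests and not between lines. Without harvest 3 of NTC1 it gave 5 calls, without harvest 1 of NTC1 6314, and without harvest 1 or 3 of NTC2 2 and 1. It also gave 2 calls, FAM241B and U2AF1, without either library of sg4, a line that is in the fit but not in this contrast. In the comparison of guide lines with NTC lines, leaving out all of NTC2, so that NTC1 was the only control, gave 6324 calls, 3075 up and 3249 down. Leaving out all of NTC1 gave 8: FAM241B, HIST2H4A, OAS2, IL24, AC242842.3, GPRC5A, PIEZO2 and AC242426.2 (named after their values were seen). The count thus rests on which NTC line serves as control, and a lone control line was assumed to vary like the guide lines.

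Genes that separated the controls by the smallest p, among those with at least 1 CPM, were named. FAM241B had 22.8 CPM in NTC1, 5.35 CPM in NTC2 and 16.5 to 18.9 CPM in the guide lines. U2AF1, a splicing factor with a near-identical copy that makes its count uncertain, had 39.3 CPM in NTC1, 102 CPM in NTC2 and 90.9 to 111 CPM in the guide lines. FAM241B in NTC2 and U2AF1 in NTC1 were thus the odd values of the 6 lines. POLRMT, the mitochondrial RNA polymerase, CDC34, a ubiquitin-conjugating enzyme, and the ribosomal protein gene RPL28 were each highest in NTC1 (4.40, 8.94 and 110 CPM). Each was lowest in NTC2 (1.99, 4.75 and 61 CPM). The guide lines lay between the 2 controls, at 2.10 to 2.59, 5.34 to 5.91 and 69.9 to 82.5 CPM.

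Among genes with no overlap between the lines and at least 1 CPM in the higher group, the 8 with the smallest p were higher in the guide lines by at most about 1 on the log2 scale, and none passed in edgeR. PIEZO2, a mechanically gated ion channel, had 1.67 and 1.51 CPM in NTC1 and NTC2 and 3.02, 3.16, 2.96 and 2.67 CPM in sg2, sg4, sg5 and sg6. Its log2 difference was 0.89 (SE 0.13, edgeR adjusted p = 0.5758, DESeq2 adjusted p = 2.935e-07), and its 12 libraries did not overlap either. DIO2, the deiodinase that activates thyroid hormone, had 0.62 and 0.723 CPM in the NTC lines and 1.26 to 1.49 CPM in the guide lines (1.01, SE 0.15).

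LRRC7, a scaffold protein of synapses, had 1.81 and 1.96 CPM in the NTC lines and 3.01, 3.49, 3.79 and 3.90 CPM in the guide lines, a log2 difference of 0.91 (SE 0.14). SLITRK6, a membrane protein of neurons, had 0.454 and 0.516 CPM against 0.878 to 1.13 CPM (1.06, SE 0.18). These 4 genes were expressed at low levels in all lines. DESeq2 called each of them (adjusted p of 0.0051 or less), while in edgeR the adjusted p was 0.5758 or more.

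At higher levels the differences were smaller. LIMA1, an actin-binding protein, had 546 and 534 CPM in the NTC lines and 650, 664, 629 and 636 CPM in the guide lines (0.26, SE 0.06, DESeq2 adjusted p = 0.04273). EPS8, another actin regulator, had 77.7 and 81.8 CPM against 96.5 to 109 CPM (0.33, SE 0.07). NHS had 9.47 and 10.4 CPM against 12.5 to 13.9 CPM (0.42, SE 0.09, DESeq2 adjusted p = 0.02524), and IL31RA, a cytokine receptor subunit, 17.9 and 19.7 CPM against 22.7 to 23.4 CPM (0.30, SE 0.07). The edgeR adjusted p of LIMA1, EPS8, NHS and IL31RA was 0.8251 for each. The difference of NHS was 0.27 and that of IL31RA 0.17 without harvest 3 of NTC1.

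On the lower side stood IL24, a cytokine of the IL10 family. IL24 had 2.38 and 3.599 CPM in NTC1 and NTC2 and 1.498, 1.765, 1.242 and 1.73 CPM in the guide lines, a log2 difference of -0.94 (SE 0.20, edgeR adjusted p = 0.8251, DESeq2 adjusted p = 0.04109). Its libraries overlapped: harvest 1 had 3.39 and 5.00 CPM in the NTC lines, harvest 3 had 1.58 and 2.12 CPM, and the guide libraries ran from 0.758 to 2.54 CPM. Without harvest 1 the difference was -0.53. With harvest 3 of NTC1 left out and the GC trend removed IL24 was the only call beside PURPL.

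The other genes named on the lower side, with group means in NTC and guide lines, were the transcription factor FOXD1 (83.4 ± 6.77 and 69.0 ± 1.82 CPM, log2 -0.27, SE 0.07), SHISA2 (32.3 ± 4.64 and 23.6 ± 2.32 CPM, -0.46, SE 0.11) and TMEM158 (21.8 ± 3.81 and 15.7 ± 1.52 CPM, -0.47, SE 0.12). PPP1R15A, which directs a phosphatase to the translation factor eIF2, had 27.4 ± 2.10 and 22.3 ± 0.867 CPM (-0.30, SE 0.07). IGFBP1, a binding protein of insulin-like growth factors, had 61.3 ± 1.03 and 51.9 ± 1.91 CPM (-0.24, SE 0.06), and the chemokine CXCL2 1.81 ± 0.119 and 1.20 ± 0.172 CPM (-0.59, SE 0.16). The pseudogene RPS27AP16 had 13.0 ± 1.83 and 9.08 ± 1.16 CPM (-0.52, SE 0.14), a value that is uncertain because its reads resemble those of its parent gene. None of these 7 passed in edgeR (adjusted p = 0.8251 for each) or DESeq2. The differences of RPS27AP16, TMEM158, FOXD1 and IGFBP1 were -0.14, -0.26, -0.18 and -0.15 without harvest 3 of NTC1.

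**Figure D3:**
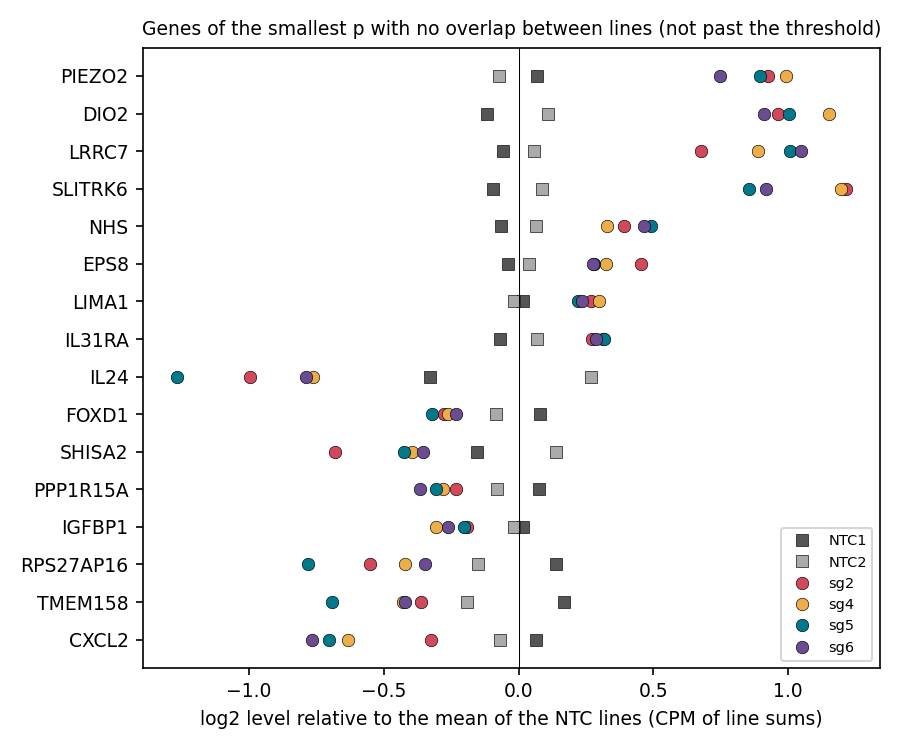
Log2 level of 16 genes relative to the mean of the NTC lines, 1 square per NTC line and 1 circle per PURPL guide line. In each gene the 4 guide lines lie on one side of both NTC lines, as was required to name it; none of the 16 passed the edgeR threshold.

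DESeq2 also called AC242842.3, AC022400.3 and AL162151.2, which were named after their values were seen. AC242842.3 (ENSG00000286185.1, not found in the annotation used here) had 0.23 and 0.258 CPM in the NTC lines and 0.862, 1.12, 0.857 and 0.814 CPM in the guide lines. The log2 difference was 1.90 (SE 0.21, edgeR adjusted p = 0.119), the smallest edgeR p after PURPL. AC242842.3 passed with the GC trend removed and with no filter on low counts, and without harvest 3 of NTC1, where it had 0 CPM, the difference was 1.36 and did not pass (0.752).

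AC022400.3, a processed transcript on chromosome 10 (73674295 to 73730466, minus strand), had 0.354 and 0.381 CPM against 0.696 to 0.805 CPM (1.03, SE 0.16). AL162151.2, a processed pseudogene on chromosome 14 (98973314 to 98973471, plus strand), had 0.915 and 0.303 CPM against 0.0274 to 0.0944 CPM (-3.18, SE 0.51), and -2.35 without harvest 3 of NTC1. AC087190.3, seen only in that library, was the 12th DESeq2 call.

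Genes of the p53 pathway were examined first among the gene lists. MDM2 had 388 and 455 CPM in the NTC lines and 445, 447, 436 and 462 CPM in the guide lines (log2 0.09, SE 0.08, 95% interval -0.09 to 0.26, edgeR adjusted p = 0.825). CDKN1A, the CDK inhibitor p21, had 96.5 and 72.9 CPM against 90.2, 85.8, 85.8 and 78.6 CPM (0.01, SE 0.11, interval -0.25 to 0.26). In CDKN1A all 4 guide lines lay within the span of the NTC lines, and in MDM2 sg6 lay above it. The direction of MDM2 turned without NTC1 (-0.02) and that of CDKN1A without NTC2 (-0.18). In that fit without NTC2, where 6324 genes passed, MDM2 (0.21, edgeR adjusted p = 0.007045) and CDKN1A (0.03741) passed as well, on opposite sides.

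Of 29 tested genes of the p53 circuit and growth arrest, 0 passed in either direction in edgeR, 19 had positive and 10 negative log2 differences, and the median was 0.06 beside -0.01 over all genes. SESN1, CYFIP2 and BTG2 were higher in all 4 guide lines (10.3% of the list, beside 5.2% of all genes), by 0.11 to 0.13, and GDF15 and MDM4 were lower (6.9%, beside 4.91%). GDF15, a stress cytokine, had 3.47 and 2.70 CPM against 1.77 to 2.51 CPM (-0.52, SE 0.17). SFN, the cell cycle brake 14-3-3 sigma, shows how NTC1 weighs: it had 10.4 CPM in NTC1, 4.89 CPM in NTC2 and 4.55 to 5.49 CPM in the guide lines, for a log2 difference of -0.59 (SE 0.25) that was 0.06 without NTC1 and -0.32 without its harvest 3.

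Of 21 p53 targets of apoptosis 0 passed, with a median of -0.01. IER3 had 25.01 and 17.9 CPM in the NTC lines and 15.8 to 17.4 CPM in the guide lines (-0.37, SE 0.13), and BAX, a pore-forming protein of mitochondria, had 30.7 and 17.7 against 17.6 to 21.1 CPM (-0.30, SE 0.19). Of 28 targets of repair and metabolism 0 passed, with a median of -0.01; both medians were 0.01 without harvest 3 of NTC1. The translesion polymerase POLH had 58.3 and 65.4 against 69.7 to 74.4 CPM (0.21, SE 0.07), and the ceramidase ACER2 1.30 and 2.01 against 2.11 to 2.21 CPM (0.39, SE 0.18). Of 13 p53-linked long noncoding RNAs, PURPL was the only one called. NEAT1, a scaffold of nuclear bodies, had 118 ± 17.3 CPM in the guide lines and 135 ± 15.7 CPM in the NTC lines (-0.19, SE 0.14), and TUG1 248 ± 5.89 and 223 ± 43.8 CPM (0.16, SE 0.11). Without harvest 3 of NTC1 the differences of BAX, POLH, ACER2 and TUG1 were -0.08, 0.13, 0.22 and 0.00, and without all of NTC1 that of BAX was 0.16.

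Named partners of PURPL were measured with similar precision. MYBBP1A, a nucleolar protein that binds p53, had 37.6 CPM in NTC1, 25.8 CPM in NTC2 and 26.1 to 28.3 CPM in the guide lines (-0.20, SE 0.13, edgeR adjusted p = 0.825). The guide lines thus lay just above NTC2 and below NTC1, and without NTC1 the difference was 0.10 (-0.12 without its harvest 3 alone). Without NTC2 it was -0.45 and passed (edgeR adjusted p = 0.0001011). ELAVL1 had 157 and 150 CPM in the NTC lines and 145 to 154 CPM in the guide lines (-0.04, SE 0.06, edgeR adjusted p = 0.874; 0.02 without harvest 3 of NTC1). Of 16 RNA-binding proteins around HuR 0 passed in edgeR, with differences between -0.08 for PTBP1 and 0.11 for IGF2BP3. Of 32 genes of ribosome biogenesis with MYBBP1A partners 0 passed, 26 were negative (beside 8715 of all 16648 genes), and the median was -0.05. Without harvest 3 of NTC1, 29 were negative and the median was -0.04. The members of smallest p, BYSL, BOP1, RRP9 and PPAN, had -0.24, -0.58, -0.41 and -0.38. Without all of NTC1 these were -0.04, 0.13, 0.04 and 0.09.

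Genes of inflammation were low in these cells and did not pass. CXCL8, a chemokine that draws neutrophils, had 6.16 and 8.06 CPM in NTC1 and NTC2 and 6.04, 3.85, 3.30 and 3.00 CPM in the guide lines (-0.81, SE 0.26, edgeR adjusted p = 0.8251). In CXCL8 the harvests differed as much as the groups, with 8.39 and 10.4 CPM in harvest 1 and 4.39 and 5.57 CPM in harvest 3 of the NTC lines. CXCL1 had 12.0 and 11.2 against 6.82 to 10.7 CPM (-0.48, SE 0.16), and IL6 3.38 and 3.97 against 2.35 to 3.40 CPM (-0.36, SE 0.17).

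Of 20 chemokine and IL6 family genes 0 passed, CXCL1, CXCL2 and CXCL8 lay below both NTC lines in all 4 guide lines (15%, beside 4.91% of all genes), and the list median was -0.03, or 0.02 without harvest 3 of NTC1. In the NF-kB list of 22 genes 0 passed and the median was -0.05 (-0.01 without that library). The interferon list of 34 had 0 calls and a median of -0.01, which was 0.09 without that library. OAS2, an antiviral enzyme, had 1.72 and 0.992 CPM against 2.54, 2.48, 2.22 and 2.09 CPM (0.79, SE 0.22, edgeR adjusted p = 0.8251).

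Cell cycle genes had small median differences, while some members varied with the control line. Of 45 mitotic genes 0 passed in either direction and the median was 0.05; for all 45 the 95% interval lay within 2-fold. MKI67, the proliferation marker Ki-67, had 627 CPM in NTC1, 822 CPM in NTC2 and 804 to 849 CPM in the guide lines (0.19, SE 0.10), and its direction turned without harvest 3 of NTC1. Of 50 genes of G1/S transition and DNA replication 0 passed, with a median of -0.02 and all 50 intervals within 2-fold. CCND2 (cyclin D2) had 1.14 and 1.00 CPM against 1.40 to 1.69 CPM (0.50, SE 0.15). TK1 and E2F1 of this list had differences of -0.38 and -0.28, and the mitotic gene ASPM one of 0.26. These were 0.05, 0.05 and -0.02 without NTC1, and -0.71, -0.55 and 0.62 without NTC2.

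Stress programmes had more members on the lower side than above, as did all genes tested (8715 of 16648 negative). Among 30 tested genes of the unfolded protein and ATF4 response, 0 passed, 25 had negative differences and the median was -0.13. The median was -0.23 without harvest 3 of NTC1 (24 negative) and -0.08 with the GC trend removed (22 negative). In all guide lines 5 (16.7%, beside 4.91%) were below both NTC lines: CEBPB, SLC3A2, TRIB3, STC2 and PSPH. CEBPB, a transcription factor, had 9.15 and 7.38 CPM against 5.36 to 6.66 CPM (-0.40, SE 0.13; -0.16 with the GC trend removed). SLC3A2, the heavy chain of an amino acid transporter, had 97.6 and 85.3 CPM against 75.8 to 82.1 CPM (-0.20, SE 0.07).

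Of 24 immediate early genes, which answer growth signals within minutes, 0 passed and 19 were negative, beside 8715 of all 16648 genes. The list median was -0.11, and -0.10 without harvest 3 of NTC1, where 20 were negative. With the GC trend removed it was -0.03 and 14 were negative. Below both NTC lines in all guide lines lay 6 (25%, beside 4.91% of all genes): DUSP1, DUSP5, IER5, EGR3, JUN and MYC. FOSL2 alone lay above both (4.17%, beside 5.2%). EGR3 had a difference of -0.74 (-0.12 without harvest 3 of NTC1) and IER5 of -0.15 (-0.08). DUSP1, a phosphatase of MAP kinases, had 34.1 and 30.7 CPM against 25.9 to 28.8 CPM (-0.24, SE 0.07), and MYC 99.9 and 93.8 CPM as group means (-0.09, SE 0.06). The heat shock, hypoxia and contractile lists of 14, 25 and 15 genes had 0 calls and medians of -0.03, -0.08 and -0.09. Without harvest 3 of NTC1 these were 0.03, -0.04 and 0.04, so that those of the heat shock and contractile lists changed sign.

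Cholesterol and fatty acid synthesis had 6 of 26 genes (23.1%, beside 5.2% of all genes) above both NTC lines in every guide line, with 0 called: ACACA, FDFT1, HMGCS1, SCD, IDI1 and HSD17B7. HMGCS1, an early enzyme of cholesterol synthesis, had 132 and 158 CPM against 187, 174, 163 and 164 CPM (0.24, SE 0.09), and ACACA, which starts fatty acid synthesis, 217 and 269 against 283 to 295 CPM (0.26, SE 0.09). SCD, a fatty acid desaturase, had 1120 and 1280 against 1308 to 1533 CPM (0.22, SE 0.09). The median of the list was 0.06, and 0.10 without harvest 3 of NTC1, where ACACA had 0.11. None of the 26 passed in edgeR in either fit.

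**Figure D4:**
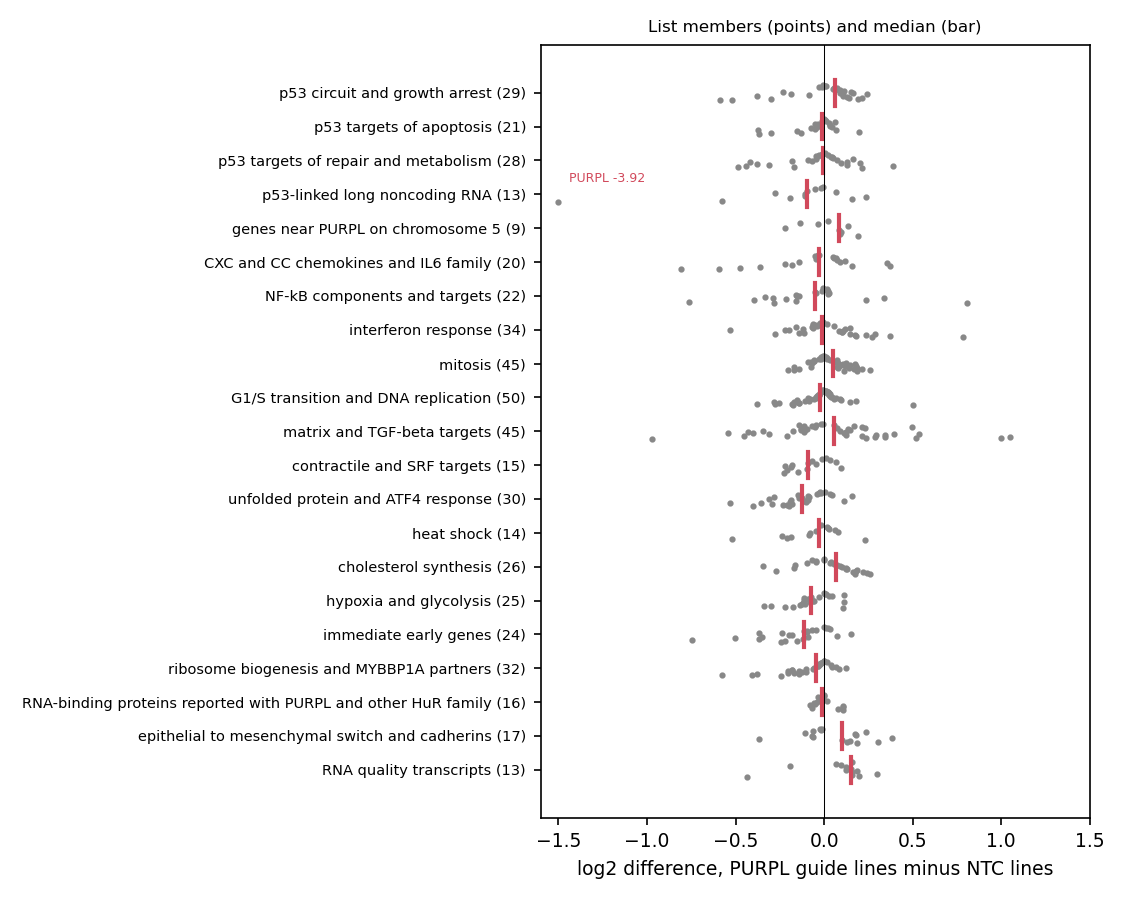
Log2 difference of each tested member of 21 gene lists (points) with the list median (bar) and the number of tested members in brackets. Most medians lie within 0.15 of 0, and PURPL, drawn at the left edge, stands at -3.92.

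In the matrix and TGF-beta list of 45 genes 0 passed, 8 (17.8%, beside 5.2%) lay above and 3 (6.67%, beside 4.91%) below both NTC lines in all guide lines. THBS1, an abundant matrix glycoprotein, had 2762 and 3052 CPM against 3508, 3335, 3382 and 3466 CPM (0.24, SE 0.06). FBN1, the fibrillin of microfibrils, had 7.04 and 10.5 CPM against 12.6 to 12.7 CPM (0.52, SE 0.15). POSTN, a matrix protein that TGF-beta induces, had 113 and 98.7 CPM against 348, 264, 119 and 163 CPM (1.05, SE 0.38), so that sg2 and sg4 were far above sg5.

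COL3A1 had 0.319 and 0.325 CPM against 0.887, 0.752, 0.405 and 0.521 CPM (1.00, SE 0.32), in the same order of lines as POSTN. Below the controls, the collagenase MMP1 had 0.484 and 0.449 CPM against 0.17 to 0.309 CPM (-0.97, SE 0.25). In the list of epithelial to mesenchymal switch and cadherins 0 of 17 passed, with a median of 0.10 (0.07 without harvest 3 of NTC1). The edgeR adjusted p of THBS1, FBN1, POSTN, COL3A1 and MMP1 was 0.8251. The fibroblast and mural marker list, which also holds COL3A1, had a median of 0.17 over 11 tested genes, and its part in the matrix values was not tested.

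Transcripts that can mark RNA quality were measured as well. Of 13 such transcripts 0 passed, the median was 0.15, and MT-CO2, MT-CYB, MT-CO3 and MT-ND4 (30.8%, beside 5.2%) were above both NTC lines in all guide lines. MT-CO2 had 858 and 828 CPM against 887, 947, 1027 and 1005 CPM (0.20, SE 0.07), while MT-ND6, read from the other strand of the mitochondrial genome, had 17.0 and 11.6 against 9.37 to 11.5 CPM (-0.44, SE 0.16). These differences were 0.30 for MT-CO2 and -0.15 for MT-ND6 without harvest 3 of NTC1. Among marker lists, the endothelial median was -0.21 over 9 tested genes and 0.00 without harvest 3 of NTC1. The hepatocyte median was -0.35 over 4 and the epithelial -0.15 over 7, with 0 calls, and without that library they were -0.23 and -0.07. The part of these transcripts in the other results was not tested.

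The surroundings of PURPL were examined because CRISPRi can act on nearby promoters. None of the 10 genes within 1 Mb had enough counts to be tested. Within 10 Mb, 47 of 251 genes were tested beside PURPL and 0 passed in edgeR. Their median log2 difference was 0.08, and 0.03 without harvest 3 of NTC1. Of the 47, 6 (12.8%, beside 5.2% of all genes) were above and 2 (4.26%, beside 4.91%) below both NTC lines in all guide lines. The nearest tested gene, LINC02211, lay 2148 kb away with 0.165 CPM in the NTC lines and 0.112 CPM in the guide lines (-0.56, SE 0.38).

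CDH10, a cadherin 2827 kb away, had 3.09 and 3.40 CPM as group means (0.14, SE 0.20), and its cluster member CDH18 had 57.1 and 67.6 CPM in the NTC lines against 67.5 to 72.5 CPM in the guide lines (0.19, SE 0.08). DROSHA, the nuclease of microRNA maturation, had 118 and 125 CPM against 126 to 134 CPM (0.09, SE 0.06; 0.05 without harvest 3 of NTC1). The largest positive difference of the 47 was that of IL7R, 8356 kb away, at 0.91 (SE 0.34), described below by line.

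The last question was how the 4 guide lines differed among themselves. The single lines were each set against the mean of the NTC lines in a fit over 12 libraries, in which p-values measure the spread between harvests and the 4 comparisons share the NTC libraries. Of 15780 genes, edgeR called 8 in sg2 (0.0507%; 5 up, 3 down), 1 in sg4 (0.00634%), 4 in sg5 (0.0253%; 3 up, 1 down) and 3 in sg6 (0.019%; 2 up, 1 down). PURPL was called in all 4, with log2 differences of -4.79 (SE 0.18) in sg2, -3.997 (0.17) in sg4, -3.33 (0.16) in sg5 and -3.84 (0.17) in sg6.

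These numbers moved with the control libraries. Without harvest 1 of NTC1, so that only its divergent library remained, sg2, sg4, sg5 and sg6 had 397, 528, 656 and 1767 calls. Without harvest 3 of NTC1 they had 22, 1, 4 and 3. Leaving out a harvest of NTC2 or of sg2 left 2 calls in sg2, PURPL and RIN2.

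RIN2, an endocytosis protein that acts on RAB5, was the clearest line-specific gene. In sg2 it had 39.96 and 42.6 CPM, and the other 10 libraries ran from 78.5 to 93.8 CPM. The log2 difference in sg2 was -1.07 (SE 0.08, edgeR adjusted p = 0.000111), and the F test among the 4 guide lines gave an edgeR adjusted p of 0.00225. NAV2, a neuronal navigator protein, was also lower in sg2 alone by its values, with 26.1 CPM in both harvests against 39.7 to 51.0 CPM in the other libraries (-0.85, SE 0.11, edgeR adjusted p = 0.0276), but was not called among guide lines.

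POSTN was called up in sg2 (1.72, SE 0.21, edgeR adjusted p = 0.0422), at 302 and 394 CPM. In sg4 it had 218 and 311 CPM, without a call in edgeR but with one in DESeq2, in sg5 128 and 110 CPM, in sg6 144 and 181 CPM, and in the NTC lines 87.2 to 140 CPM. SEMA3A, a secreted guidance cue, had 83.9 CPM in sg2, 68.6 CPM in sg4, 45.7 CPM in sg5 and 46.1 CPM in sg6, against 41.2 and 46.1 CPM in the NTC lines (0.95 in sg2, SE 0.14). The complement component C7 followed the same order, with 13.2 CPM in sg2, 9.29 CPM in sg4, 5.29 CPM in sg5 and 5.92 CPM in sg6, against 5.99 and 6.37 CPM (1.10 in sg2, SE 0.16). SLC27A2 and SEMA5A were the remaining calls in sg2.

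Another pair of genes stood out in sg5 and sg6. IL7R, the receptor of interleukin 7, had 44.3 CPM in sg5 and 39.4 CPM in sg6, 24.2 CPM in sg2 and 24.3 CPM in sg4, but 23.6 CPM in NTC1 and 11.7 CPM in NTC2. It was called in sg5 (1.42, SE 0.11) and sg6 (1.25, SE 0.11), and also between the NTC lines (-1.02, SE 0.14), so NTC2 was the lowest of the 6 lines and sg2 and sg4 stood close to NTC1. ABCC2, an exporter of conjugated compounds, had 34.1 CPM in sg5, 27.4 CPM in sg6, 20.1 and 20.0 CPM in sg2 and sg4, and 16.6 and 9.07 CPM in the NTC lines (1.47 in sg5, SE 0.12, and 1.16 in sg6, SE 0.12).

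PPME1, a methylesterase of protein phosphatase 2A, had 292 CPM in sg5, 254 CPM in sg6, 176 CPM in sg2 and 184 CPM in sg4, with 206 CPM in both NTC lines, and was called in sg5 (0.51, SE 0.07). That call was lost with any 1 library of NTC2 or of a guide line left out, and kept without either library of NTC1. Among the 4 guide lines edgeR called 3 genes of 15780 (0.019%): RIN2, PPME1 (adjusted p = 0.0152) and SEMA5A (0.0329). SEMA5A had 29.8 CPM in sg2, 24.2 in sg4, 13.7 in sg5 and 16.9 CPM in sg6, with 17.4 and 18.4 CPM in the NTC lines. Among guide lines PPME1 and SEMA5A lost their calls without either library of sg2, sg4 or sg5 or without harvest 3 of NTC2, and RIN2 lost its call without either library of sg2.

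The next in order, DCDC2 (adjusted p = 0.069) and AKAP12 (0.0734), did not pass. DCDC2, a microtubule-binding protein, had 203 CPM in sg2, 155 in sg4, 50.5 in sg5 and 56.7 CPM in sg6, with 92.5 and 74.8 CPM in the NTC lines. Its values in sg2 and sg4 were above both NTC lines and those in sg5 and sg6 below, so that its difference between groups was 0.47 with an SE of 0.54.

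**Figure D5:**
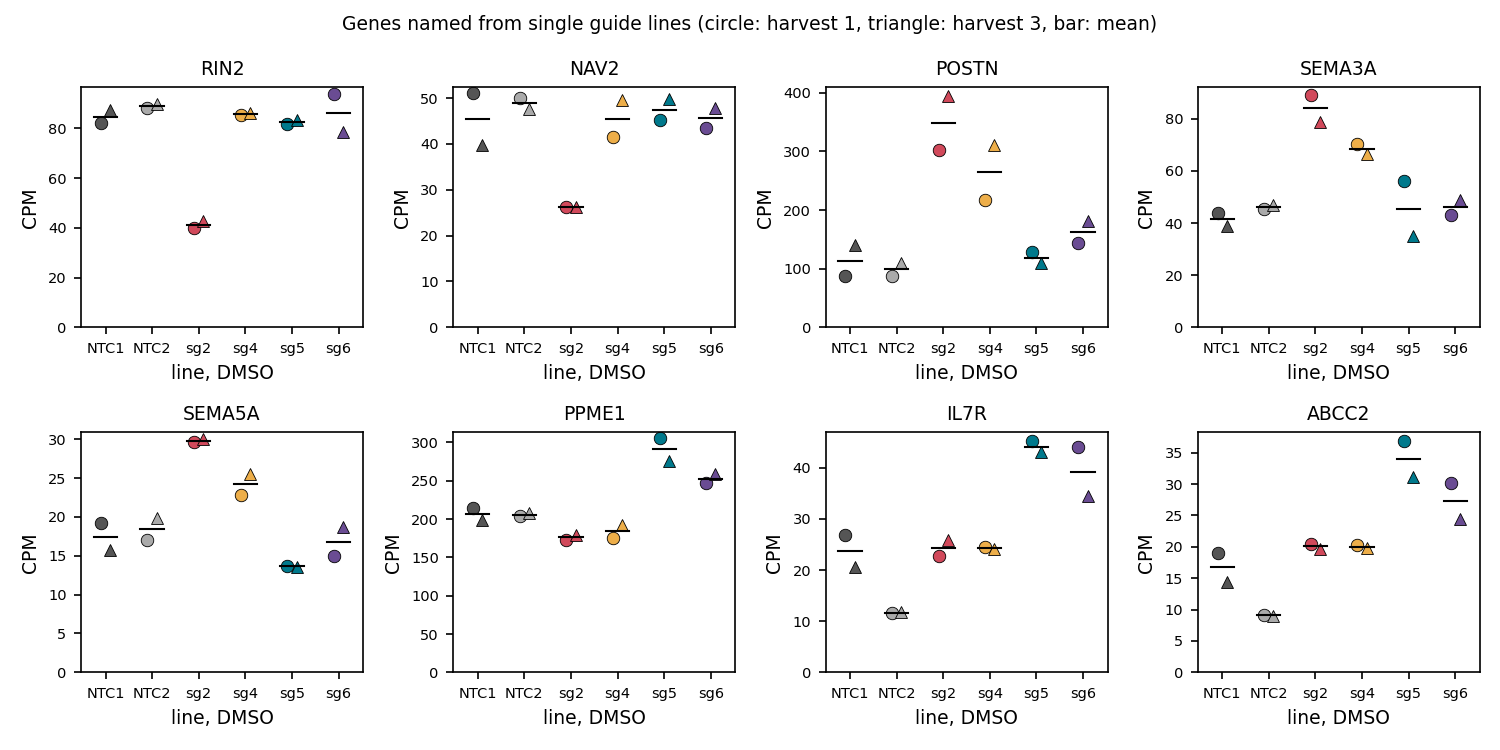
Level in CPM (y axis from 0) of 8 genes in each of the 12 DMSO libraries, by line, with a bar at the mean of the 2 harvests. RIN2 and NAV2 are low in sg2 alone, POSTN, SEMA3A and SEMA5A are highest in sg2, and PPME1, IL7R and ABCC2 are highest in sg5.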

How the data were processed

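Polyadenylated RNA was sequenced from TruSeq stranded libraries, per the labels' protocols. The deposited values are estimated counts per gene, made by the authors with RSEM, per the submitters' processing notes. Those notes also name cutadapt, STAR, DESeq2 and hg38, with versions and strand setting not given in the sources used here. Overlapping, antisense and near-identical genes are therefore uncertain. In the 12 libraries 5.602% to 6.222% of values were not whole. The 45 second-copy pseudoautosomal rows of 58870 (0.0205% of counts) were added to their X rows and counts were rounded. A level of 1 CPM stands for 68.25 to 92.12 counts. Coordinates came from GENCODE release 29 (58552 of 58825 IDs matched without version), and the promoter from RefSeq.

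Harvests of a line were summed, filtered with filterByExpr (minimum count 10), scaled by TMM and tested with edgeR 4.0.16 (R 4.3.3; robust quasi-likelihood F test, 4 residual degrees of freedom, Benjamini-Hochberg at 0.05). Single lines, NTC2 against NTC1 and the guide lines among themselves were tested in 1 model of 6 line means over 12 libraries. Those p-values measure the spread between harvests, which the labels call biological replicates. No p was computed for a gene list. Tests were checked on simulated counts.

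Named genes were PURPL, MDM2, CDKN1A, MYBBP1A and ELAVL1, every called gene, the 8 smallest p in each direction with at least 1 CPM and no overlap between lines, and at most 4 genes per list, those of smallest p. Up to 3 genes in each direction were named for each single guide, and 6 for the controls and for the guide lines among themselves. A gene that the rule also names is not reported here. All other genes were named after their values were seen. The comparison, lists and rules were chosen with earlier results of these data known. The alternatives run were no filter, RLE size factors, a 1 CPM filter, DESeq2 1.42.0, a random line effect in limma 3.58.1, a harvest block, lines and harvests left out, and GC trends removed (lowess span 0.3; GC known for 99.7% of genes). GC removal without harvest 3 of NTC1, and counts of non-overlapping genes without it, were added after the data were seen.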

Additional observations from a re-analysis of the deposited data

Results flagged for a closer look

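Of 126 named genes, 5 had 1 guide line far from the other 3, by the gap to the nearest line as a share of the whole range, against a critical value of 0.829 for 4 lines. Chance flags about 1 in 20 groups, and 5 of 126 is not above that share. AC242842.3 was high in sg4 (1.12 CPM against 0.814 to 0.862 CPM, gap share 0.843), and FLT1 was high in sg5 (0.117 CPM against 0.0497 to 0.0587 CPM, 0.866). FLT1 stayed at 0.0386 to 0.139 CPM over all libraries, a level of few counts. CDH18 was low in sg5 (67.5 CPM against 72.0 to 72.5 CPM, 0.906), the chaperone HSPA1A in sg2 (16.6 CPM against 20.5 to 21.0 CPM, 0.893), and ENG in sg6 (22.8 CPM against 25.5 to 26.0 CPM, 0.863). HSPA1A shares most of its sequence with HSPA1B, so its count is uncertain.

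Levels differed from line to line for 3 genes, by edgeR's F test among the 4 guide lines, which uses the spread between harvests. PPME1 and SEMA5A lost their calls without either library of sg2, sg4 or sg5. A guide effect cannot be told apart from a line effect here. The 3 genes were RIN2 (edgeR adjusted p = 0.00225), PPME1 (0.0152) and SEMA5A (0.0329). The first was low in sg2, the second high in sg5 and sg6, and the third high in sg2 and sg4.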

How the results depend on the processing

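PURPL kept its direction in every alternative run, from -4.17 to -3.70 with a line or harvest left out, and lost its call at -4.06, -3.89, -3.93 and -3.92 (without NTC1, sg4, sg6 and harvest 1). Without harvest 3 of every line it was -3.91. The count of 1 gene was 2 with no filter, 12 in DESeq2, 2 with the GC trend removed and 2 with that and harvest 3 of NTC1 left out; with a line or harvest left out it ran from 0 to 6324, with 8 without NTC1. For sg2, sg4, sg5 and sg6 in that order the counts were 176, 90, 157 and 340 with no filter and 53, 15, 22 and 5 in DESeq2, and they ran from 2 to 397, 1 to 528, 3 to 656 and 2 to 1767 with a harvest left out. Between the NTC lines the range was 1 to 6314. Among guide lines the count was 243 with no filter and 100 in DESeq2, and 0 to 6 with a guide harvest left out, but 20 without harvest 1 and 20 without harvest 3 of NTC1. Non-overlapping genes numbered 900 up and 739 down without harvest 3 of NTC1.

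Harvest numbers were not taken as pairing the lines, since the harvest differences correlated above 0.1 in only 6 of 15 pairs of lines (r from -0.113 to 0.201). With the number as a replicate block, the count was 1 for the groups of lines (PURPL -3.98), 17 for sg2, 3 for sg4 (with POSTN and ABCC2), 3 for sg5 (without PPME1), 3 for sg6, 4218 for the NTC lines and 5 among guide lines.

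Of 168 genes followed, 53 changed sign without NTC1, 9 without NTC2 (among them CDKN1A at -0.18 and FAM241B at -0.42), 10 without harvest 3 of NTC1 and 10 with the GC trend removed. The comparison had 2 control lines, 1 of which holds the divergent library, and the median SE below 1 CPM was 0.296. Small differences in weakly expressed genes were not detectable at this depth and number of lines. Larger ones also went uncalled in edgeR, among them POSTN at a log2 difference of 1.05 and PIEZO2 at 0.89. A gene without a call is therefore not shown to be unchanged. The cause of the dependence on NTC1 was not tested.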
